A study of Mus musculus with 12 samples.

Results

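The 6 transcription factor genes described here were followed through the developing upper face of the mouse: the 4 genes of POU class III (Pou3f1, Pou3f2, Pou3f3, Pou3f4), the paired-like homeobox gene Pitx1 and the LIM homeobox gene Lmx1b. They are 6 of 53392 genes in the tables, found by gene symbol. They were chosen by measured values of this series, but which values is not stated. The maxillary comparison, in which Pou3f4 and Pitx1 differ most between the groups, is taken to be the one used, so its values are a description here, with no test. The other comparisons are given with tests, on the assumption that they did not decide the choice. The maxillary controls also enter the comparison between tissues, so its tests are not independent of the choice.

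POU factors bind DNA through a POU-specific domain joined by a linker to a POU homeodomain, and the class III members are best known from the nervous system, inner ear and kidney, where they often act beside SOX factors. Pitx1 is a bicoid-type homeodomain factor of the pituitary, the hindlimb, the oral ectoderm and the mandibular part of the first pharyngeal arch. Lmx1b is a LIM homeodomain factor of the dorsal limb, the kidney glomerulus, brainstem neurons and the mesenchyme around the eye, and it needs the adaptor Ldb1 to act.

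Polyadenylated RNA was sequenced from 12 libraries of embryos of the 129S4 strain, in 4 groups of 3. Palatal shelf mesenchyme at embryonic day E13.5 was either wild-type (Pdgfra+/+) or homozygous for the PdgfraPI3K allele (PdgfraPI3K/PI3K), a knock-in whose receptor cannot engage the kinase PI3K. Maxillary process mesenchyme at E11.5 came from embryos that all carried floxed Srsf3 on both chromosomes, either without Cre (Srsf3fl/fl;Wnt1-Cre+/+, the controls) or with it (Srsf3fl/fl;Wnt1-Cre+/Tg, the libraries labelled Srsf3 cKO). Srsf3 encodes a splicing factor of the SR family, and Wnt1-Cre is driven in the neural crest, so other cells of the process keep Srsf3. The series describes the libraries as biological replicates, and no label says how many embryos each one holds or which share a litter. The series concerns RNA splicing by Srsf3 downstream of the receptor PDGFRα, and the tables analysed here hold gene totals.

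The palatal shelf libraries held 30509338 to 37406960 estimated counts and the maxillary libraries 15932541 to 27887654. Srsf3 itself stood at 470, 407 and 416 transcripts per 1000000 (TPM, scaled for transcript length and depth) in controls and at 320, 441 and 407 TPM in the libraries labelled Srsf3 cKO. Its gene total differed by 0.03 on the log2 scale (SE 0.14, edgeR), so it does not separate the groups, and the labels do not say which exons are floxed. The 10 facial mesenchyme markers summed to 2422 to 3091 TPM in wild-type palatal shelves, 2600 to 2876 in PI3K ones, 2494 to 3382 in maxillary controls and 1533 to 2362 in the libraries labelled cKO. In the maxillary controls 13 of 15 markers of ectoderm and oral epithelium were below 1 TPM on average, whereas all 15 were above it in the palatal shelves, where the ectoderm had also been treated with trypsin. Among the maxillary libraries, replicate 1 of those labelled cKO stood apart, with the highest endothelial sum (535 TPM, against 219 to 228 in controls), the highest red blood cell sum (33293 TPM) and the lowest mesenchyme sum. Control replicate 3 had the highest sum of neuron markers (177 TPM, against 66.1 and 81.1 in the other controls). Maxillary differences of Pou3f3, Pou3f4, Pitx1 and Lmx1b are also given with a library left out. Marker sums and the values of neighbouring genes are given with all libraries only.

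The 4 POU class III genes are alike over the DNA-binding part of their coding sequence, so whether short reads can tell them apart bears on every value below. Each has 1 transcript with 1 exon in the GENCODE M21 annotation (build GRCm38). The stretches below are the 120 coding bases most alike among them, from inside the POU-specific domain, written 5′ to 3′ on the coding strand, with capitals at the 24 bases that are not the same in all 4 genes. They lie at chr4:124658506-124658625 (plus strand) for Pou3f1, chr4:22487156-22487275 (minus) for Pou3f2, chr1:42698143-42698262 (plus) for Pou3f3 and chrX:110815087-110815206 (plus) for Pou3f4.
Pou3f1: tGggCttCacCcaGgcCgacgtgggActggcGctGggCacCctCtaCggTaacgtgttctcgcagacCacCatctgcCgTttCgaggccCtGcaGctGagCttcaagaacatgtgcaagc
Pou3f2: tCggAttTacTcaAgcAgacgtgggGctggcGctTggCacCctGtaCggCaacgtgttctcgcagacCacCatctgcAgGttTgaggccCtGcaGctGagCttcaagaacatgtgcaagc
Pou3f3: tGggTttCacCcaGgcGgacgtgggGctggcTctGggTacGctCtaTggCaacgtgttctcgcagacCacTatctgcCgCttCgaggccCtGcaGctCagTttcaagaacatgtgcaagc
Pou3f4: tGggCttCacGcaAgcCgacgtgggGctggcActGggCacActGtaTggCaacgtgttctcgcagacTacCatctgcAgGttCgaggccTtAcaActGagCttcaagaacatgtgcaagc

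In this window 96 of 120 bases (80.0%) are identical in all 4 genes, and all 39 whole codons encode the same residue in all 4, so the capitals within those codons mark synonymous changes. Pairs of genes share 102 to 108 of the 120 bases. Over the aligned coding sequence the pairs are 61.0% (Pou3f1 and Pou3f4) to 70.5% (Pou3f2 and Pou3f3) identical. The longest run of identical bases in an aligned pair is 38, between Pou3f1 and Pou3f2. Of the transcripts' stretches of 31 bases on the same strand, Pou3f1 and Pou3f2 share 8 (0.209% of those in Pou3f1 and 0.145% of those in Pou3f2), and no other pair of the 4 shares any. On the opposite strand Pou3f2 shares 2 with Pou3f3 and 2 with Pou3f4 (0.0362% of those in Pou3f2 each). Reads of a class III gene could thus be placed on another over a very small part of the transcripts.

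Pou3f3 and Lmx1b each have a noncoding gene on the opposite strand that starts close by and points away, so the sequence before each gene's start is shown. These are the 250 bases before each gene's RefSeq start (build GRCm38.p6), on the gene's own strand, at chr1:42695518-42695767 (plus) for Pou3f3 and chr2:33641099-33641348 (minus) for Lmx1b. The Pou3f3 window covers part of the stretch between its GENCODE start and that of its neighbour, while the neighbour of Lmx1b starts at chr2:33641193, inside the Lmx1b window. Capitals mark matches to CCAAT, the motif of the CCAAT box.
Pou3f3: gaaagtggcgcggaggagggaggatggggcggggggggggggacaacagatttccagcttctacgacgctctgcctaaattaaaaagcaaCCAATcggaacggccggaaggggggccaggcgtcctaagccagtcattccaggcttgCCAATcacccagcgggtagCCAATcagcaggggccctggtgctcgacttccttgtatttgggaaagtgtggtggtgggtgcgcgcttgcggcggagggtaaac
Lmx1b: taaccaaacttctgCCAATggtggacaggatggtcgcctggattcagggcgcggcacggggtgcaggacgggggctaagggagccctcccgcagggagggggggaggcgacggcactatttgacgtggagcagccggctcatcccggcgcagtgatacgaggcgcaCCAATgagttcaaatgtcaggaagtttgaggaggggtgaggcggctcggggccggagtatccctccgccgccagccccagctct

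The Pou3f3 window holds 3 matches to CCAAT, at 160, 103 and 84 bases before the start, and the Lmx1b window holds 2, at 236 and 84 bases before it. Windows of this length held CCAAT on either strand in 33.8% of 32851 RefSeq promoters. The windows of Pou3f2 and Pou3f4 hold 2 and 3 matches. None of these 4 windows has the POU octamer ATGCAAAT (1.6% of all promoters on either strand), the homeodomain core TAATTA (4.84%), the bicoid-type TAATCC (6.25%) or TATAAA (12.4%), which says only that these letters are not in the windows. They hold 13 to 19 CpG dinucleotides, against a median of 6 over all promoters.

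Pou3f3, known for roles in cortical neurons, in the kidney and in the proximal first arch, had the highest level of the class III genes in 3 of the 4 groups. It lies on chromosome 1 (ENSMUSG00000045515.3, chr1:42695768-42703176, plus strand). Its level was 18.8, 15.9 and 14.1 TPM in wild-type palatal shelves (mean 16.3 ± 2.35, SD, n = 3) and 20.6, 25.2 and 23.9 TPM in PI3K palatal shelves (23.3 ± 2.39). All 3 PI3K libraries were above all 3 wild-type ones.

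The difference was 1.43-fold, or 0.52 on the log2 scale (SE 0.14, 95% interval 0.20 to 0.84). Its unadjusted p was 0.006216 and its adjusted p 0.9997 over 16525 genes (edgeR quasi-likelihood test), so the call fails the correction. Leaving out each library in turn gave 0.43 to 0.66, positive in all 6 fits. Neural crest glia markers summed to 132 to 167 TPM in wild-type and 140 to 186 TPM in PI3K libraries, and neuron markers to 65.2 to 78.2 and 64.7 to 94.1 TPM. Gene by gene, 8 of 10 glia markers were higher in PI3K libraries, with a median of 0.46 and 4 without overlap. Of 13 neuron markers tested, 10 were higher, with a median of 0.20 and 2 without overlap. Other cell lists differed too: all 9 skeletal muscle markers were higher in PI3K libraries, with a median of 2.61. All 8 red blood cell markers were lower (median -0.57), as were 9 of 10 macrophage markers (median -0.19). Of the muscle, red blood cell and macrophage markers, 0 were without overlap. Over all genes the median was -0.01 and 6.23% did not overlap, and none of these markers passed the FDR threshold. The part of these cell types in the Pou3f3 difference was not tested. In bulk tissue more cells that express a gene and more RNA per cell cannot be told apart.

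In maxillary controls Pou3f3 stood at 28.8, 33.6 and 62.0 TPM (41.5 ± 18.0), and in the libraries labelled Srsf3 cKO at 17.4, 31.7 and 33.9 TPM (27.7 ± 8.98). The groups overlapped, and control replicate 3 and cKO replicate 1 held the highest and the lowest value. The difference between them was -0.52 on the log2 scale (SE 0.32), -0.15 without control replicate 3 and -0.28 without cKO replicate 1. The order of group means, from maxillary controls through the labelled cKO and PI3K palatal shelves to wild-type palatal shelves, had only 1 step without overlap, that between PI3K and wild-type palatal shelves.

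Pou3f3 was lower in the wild-type palatal shelf at E13.5 than in the control maxillary process at E11.5, by 1.49 on the log2 scale (log2 change -1.49, SE 0.25, adjusted p 0.002559, edgeR). The 3 maxillary values were all above the 3 palatal ones. Without control replicate 3, the library rich in neuron markers, the change was -1.17 (adjusted p 0.001048, edgeR). Tissue, stage, sequencing lane and the floxed Srsf3 alleles of the maxillary embryos differ together in this comparison and cannot be told apart.

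Pantr1, a long noncoding RNA gene on the minus strand that starts 926 bases from the start of Pou3f3, followed it across the groups. It stood at 21.6 ± 1.39 TPM in wild-type and 30.8 ± 3.71 in PI3K palatal shelves, at 89.2 ± 56.4 in maxillary controls and at 45.2 ± 22.0 in the labelled cKO (SD, n = 3). Control replicate 3, the highest for Pou3f3, was also the highest for Pantr1 at 154 TPM, and the PI3K libraries at 27.6, 30.0 and 34.9 TPM were again all above the wild-type ones at 20.3, 23.0 and 21.5. The palatal shelf change of Pantr1 was 0.54 (SE 0.18, adjusted p 0.9997) and its change between tissues -1.94 (SE 0.30, adjusted p 0.001742, edgeR). Pantr1 and Pou3f3 share no stretch of 31 bases on either strand. AC122898.1, annotated as sense-overlapping with Pou3f3, was at 1.49 to 6.81 TPM in all libraries and also shares none with it.

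**Figure D1:**
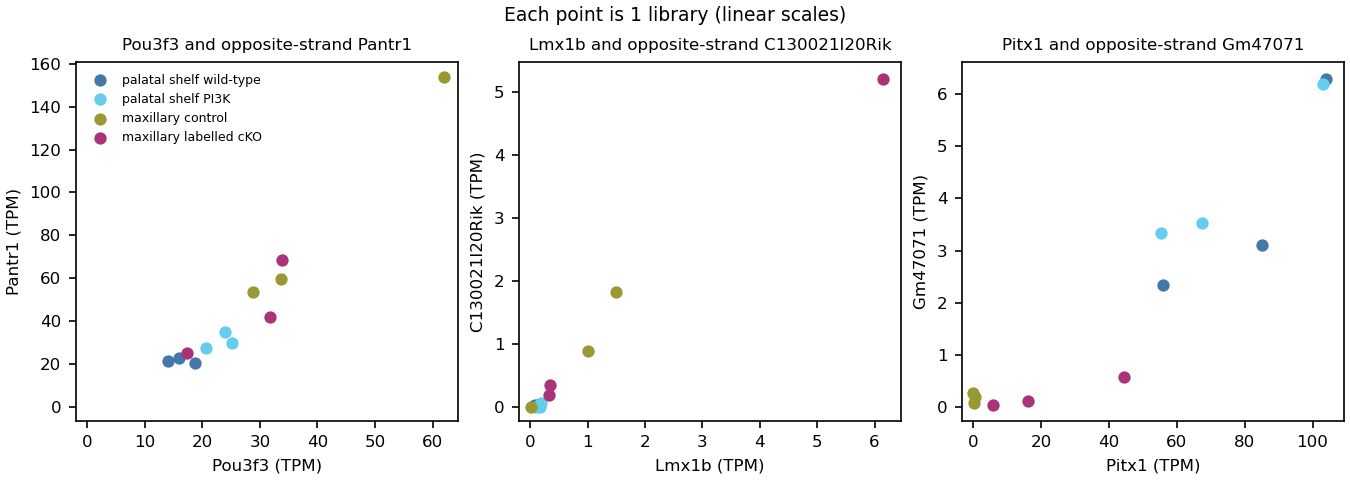
Level of 3 opposite-strand noncoding genes (vertical axes, TPM) against the level of their neighbours Pou3f3, Lmx1b and Pitx1 (horizontal axes, TPM); each point is 1 of the 12 libraries, coloured by group, on linear scales. The maxillary control at 62.0 TPM of Pou3f3 has 154 TPM of Pantr1, and the labelled cKO library at 6.15 TPM of Lmx1b has 5.21 TPM of C130021I20Rik.

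Pou3f4, an X-linked gene whose loss causes deafness through the mesenchyme around the inner ear, was a minor class III gene in 3 of the 4 groups. It lies at chrX:110814280-110817207 on the plus strand (ENSMUSG00000056854.4). Wild-type palatal shelves held 1.79, 0.892 and 1.63 TPM (mean 1.44 ± 0.480, SD, n = 3), and PI3K ones 1.17, 1.13 and 0.792 TPM (1.03 ± 0.208). These groups overlapped, and the difference was -0.48 (SE 0.35, 95% interval -1.29 to 0.34, adjusted p 0.9997, edgeR).

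In maxillary controls Pou3f4 was at 3.40, 3.36 and 5.06 TPM (3.94 ± 0.970), from 93 to 179.1 estimated counts a library. In the libraries labelled Srsf3 cKO it was at 31.3, 37.8 and 40.1 TPM (36.4 ± 4.55). Every labelled cKO library was far above the highest control. As a description, with no test, the difference was 3.26 on the log2 scale (9.56-fold, 95% interval 2.85 to 3.66). It was 3.18 to 3.45 when each library was left out, and 3.35 without cKO replicate 1.

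Between tissues Pou3f4 was lower in wild-type palatal shelf than in maxillary control by 1.59 on the log2 scale (log2 change -1.59, SE 0.31, adjusted p 0.004425, edgeR), with no overlap. The range over left-out libraries was -1.78 to -1.33. The same control libraries enter this comparison and the one taken to have been used in choosing the genes.

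Pou3f1, a regulator of Schwann cell myelination also known as Oct6, and Pou3f2, a neuronal factor also known as Brn2, were at or near the limit of detection. Both lie on chromosome 4, at chr4:124656807-124660655 (plus strand, ENSMUSG00000090125.3) and chr4:22482780-22488366 (minus, ENSMUSG00000095139.2). Pou3f1 ranged from 0.238 to 0.992 TPM over the 12 libraries and its group means from 0.313 to 0.646 TPM, with overlap between all neighbours in that order. It rested on 10 to 66 estimated counts a library. Its log2 differences were 0.30 (SE 0.48) for PI3K against wild-type, 0.24 (SE 0.35) for palatal shelf against maxillary control, and -0.27 (SE 0.38) for labelled cKO against control. The 95% intervals, -0.83 to 1.43, -0.58 to 1.07 and -1.17 to 0.62, leave room for changes of either sign.

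Pou3f2 had 0 to 26.6 estimated counts a library. It was at 0.0816, 0.0177 and 0 TPM in wild-type and 0.0917, 0.262 and 0.0597 TPM in PI3K palatal shelves, and edgeR's filter on low counts left it untested there. In the maxillary process it was at 0.166, 0.102 and 0.284 TPM in controls and 0.344, 0.137 and 0.226 TPM in the labelled cKO, with overlap. With so few counts its level is imprecise in every library.

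The makeup of the class III family was alike in 3 groups and different in the other. Pou3f3 gave 89.1% ± 1.70 of the summed TPM of the 4 genes in wild-type palatal shelves, 92.7% ± 2.18 in PI3K ones and 89.7% ± 1.84 in maxillary controls (SD, n = 3). In the labelled cKO it gave 42.0% ± 5.89 and Pou3f4 57.1% ± 5.52. Pou3f4 gave 63.5%, 54.0% and 53.8% of the sum in the 3 labelled cKO libraries, against 7.46 to 10.4% in controls. The summed level was 32.7, 37.5 and 67.8 TPM in controls and 49.3, 69.9 and 74.5 TPM in the labelled cKO. The sums overlapped while the shares did not.

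**Figure D2:**
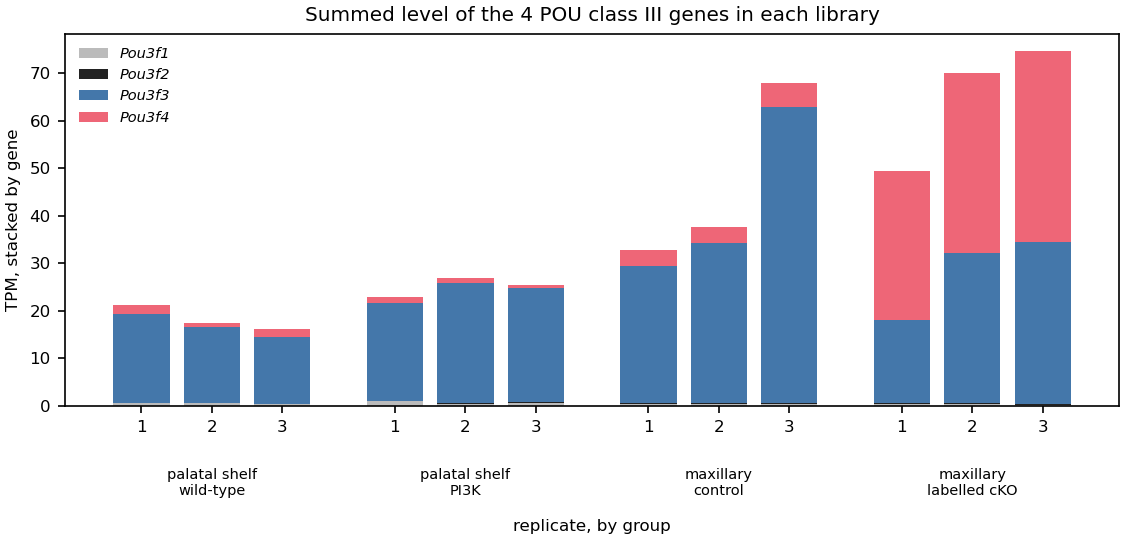
Summed TPM of the 4 POU class III genes in each library (bars, stacked by gene, axis from 0), in 4 groups of 3. Pou3f3 fills most of each bar in 3 groups, whereas Pou3f4 gives 53.8 to 63.5% in the libraries labelled Srsf3 cKO.

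Pitx1 (ENSMUSG00000021506.7, chr13:55825051-55836192, minus strand, 2 transcripts of 3 exons) had the highest level of the 6 genes in the palatal shelf and the widest range of levels across the study. It was at 55.9, 104 and 85.0 TPM in wild-type (81.7 ± 24.3, SD, n = 3) and 67.3, 103 and 55.4 TPM in PI3K palatal shelves (75.3 ± 24.9). The groups lay over each other. The difference was -0.07 on the log2 scale (SE 0.31, 95% interval -0.79 to 0.65, adjusted p 0.9997, edgeR), an interval that leaves room for changes of either sign.

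In maxillary controls Pitx1 was at 0.309, 0.656 and 0.137 TPM, from 7, 16 and 4 estimated counts. In the labelled cKO it was at 6.03, 16.2 and 44.4 TPM, from 168, 554.2 and 980.5 counts. The groups did not overlap, and the labelled cKO libraries differed among themselves more than for Pou3f4, the lowest being replicate 1. As a description, the difference was 5.78 on the log2 scale (SE 0.85, 95% interval 3.79 to 7.76), and 4.85 to 6.53 when each library was left out. Even the highest labelled cKO library was below the lowest palatal shelf library.

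Pitx1 was higher in wild-type palatal shelf than in maxillary control by 7.43 on the log2 scale (SE 0.43, 95% interval 6.42 to 8.44, adjusted p 4.092e-05, edgeR). This was the largest difference among the 4 genes tested between these groups. Leaving out each library gave 6.91 to 8.16. The same low controls enter the maxillary comparison taken to have been used in the choice, so this p is not independent of it.

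Oral ectoderm also expresses Pitx1, so ectoderm markers are set beside it. A sum over 14 of the 15 ectoderm markers came to 718, 817 and 943 TPM in wild-type palatal shelves and 952, 965 and 410 TPM in PI3K ones. All 15 markers of the full list passed the FDR threshold as higher in palatal shelf than in maxillary control, with a median of 6.96 on the log2 scale, against 0.03 over all genes. Trp63, the master factor of stratified epithelium, was at 26.2, 52.6 and 35.9 TPM in wild-type palatal shelves, in the same order as Pitx1, but Krt14, at 178, 242 and 253 TPM, and Cdh1, at 33.8, 38.3 and 43.2 TPM, were not, nor was the sum. The part of ectoderm in the Pitx1 level of the palatal shelf was not tested.

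In the maxillary libraries the same 14 markers summed to 10.6, 3.06 and 1.84 TPM in controls and 17.6, 10.8 and 21.1 TPM in the labelled cKO. Krt14, the basal epithelial keratin, was at 0.669, 0 and 0.168 TPM in controls and 0.177, 0.250 and 0.785 TPM in the labelled cKO. In wild-type palatal shelves it was at 178 to 253 TPM. Trp63 was at 0.656, 0.231 and 0.439 TPM in controls and 1.16, 1.02 and 2.80 TPM in the labelled cKO. Of the 15 markers 10 were tested in the maxillary process. All 10 were higher in the labelled cKO, none past the FDR threshold and 5 without overlap. Their median was 2.05 on the log2 scale, against 0.00 over all genes. Their part in the Pitx1 level of the labelled cKO was not tested.

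The antisense gene Gm47071 overlaps Pitx1 and shares 135 of the 2625 stretches of 31 bases of its transcripts (5.14%) on the opposite strand. The sources used here do not state whether reads were assigned by strand, so reads of the shared part cannot be told apart. Gm47071 was at 2.34, 6.30 and 3.11 TPM in wild-type palatal shelves, 0.0867, 0.201 and 0.275 in maxillary controls and 0.0353, 0.125 and 0.571 in the labelled cKO. Its change between tissues was 4.20 (SE 0.54, adjusted p 0.0008555, edgeR). Gm28760, a short noncoding gene inside Pitx1 on its strand that shares 80 of its stretches (3.05%), was at 0 to 1.40 TPM.

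**Figure D3:**
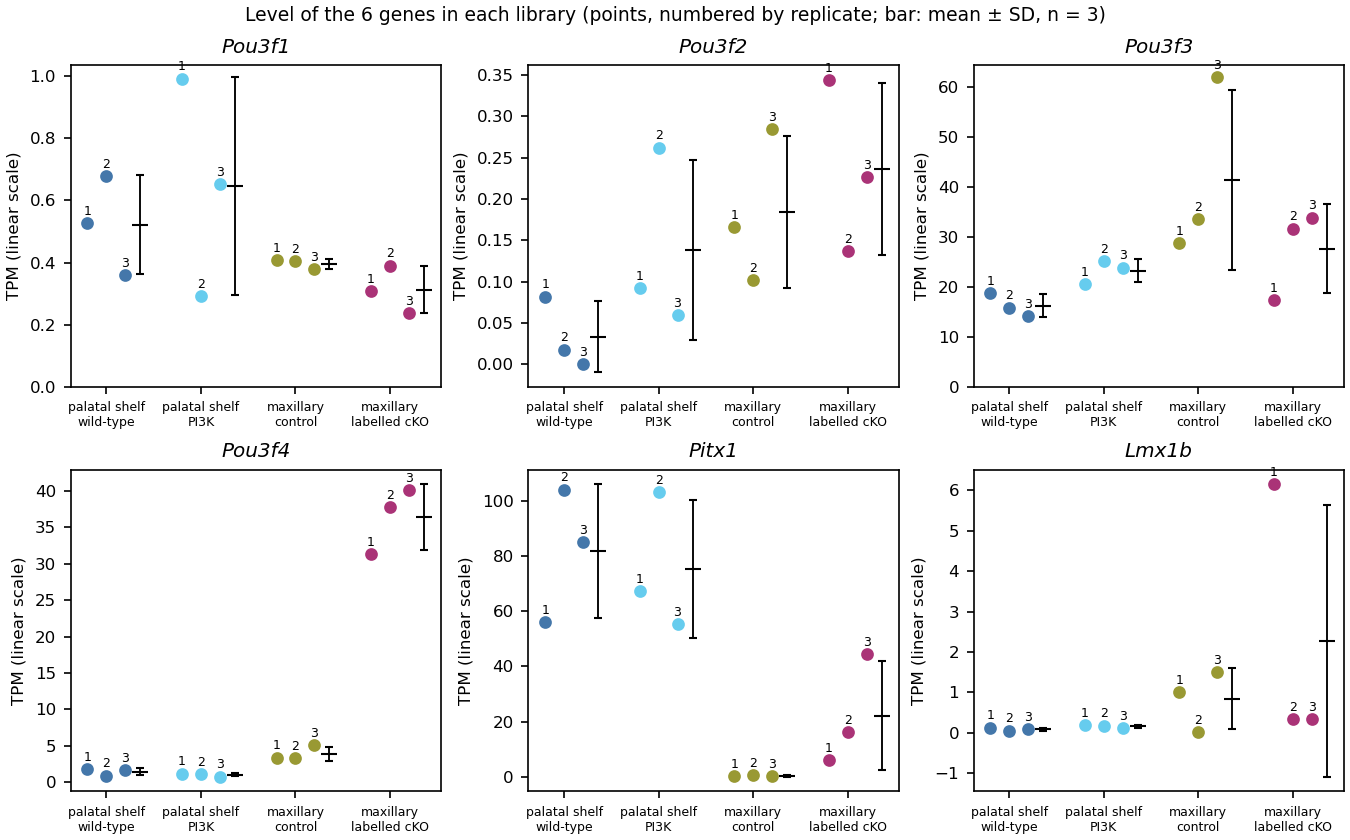
Level of the 6 genes (TPM, linear axes with a separate scale for each gene) in the 12 libraries; points are libraries numbered by replicate, and the bar beside each group is the mean ± SD of 3. Pou3f4 and Pitx1 are above all controls in the 3 libraries labelled Srsf3 cKO, and Lmx1b is at 6.15 TPM in 1 of them and below 0.35 TPM in the other two.

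Lmx1b (ENSMUSG00000038765.13, chr2:33560965-33640511, minus strand, 3 transcripts of 3 to 8 exons) was barely present in the palatal shelf. Wild-type libraries held 0.132, 0.0520 and 0.0880 TPM and PI3K libraries 0.191, 0.174 and 0.110 TPM, from 5 to 16 estimated counts. The groups overlapped, and the difference was 0.81 (SE 0.49, 95% interval -0.33 to 1.95, adjusted p 0.9997, edgeR).

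In the maxillary process Lmx1b varied more within groups than between them. Controls were at 1.01, 0.0200 and 1.50 TPM, from 38, 1 and 66 counts, and the labelled cKO at 6.15, 0.337 and 0.341 TPM, from 220, 18 and 18. The difference of 1.25 on the log2 scale (SE 1.26) rested on cKO replicate 1: without that library it was -1.15. Replicate 1 was also the library with the highest endothelial and red blood cell sums.

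C130021I20Rik, an antisense noncoding gene that starts 682 bases from the GENCODE start of Lmx1b, inside the window printed above, had the same order in the maxillary libraries. It was at 0.895, 0 and 1.82 TPM in controls and 5.21, 0.196 and 0.352 TPM in the labelled cKO. Both genes were lowest in control replicate 2 and highest in cKO replicate 1. In the palatal shelf it did not exceed 0.0628 TPM. The pair shares no stretch of 31 bases on either strand.

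Of the other annotated genes that overlap one of the 6 or start within 10 kb of one, Gm2164 at Pou3f1, Gm30731 at Pou3f2, Gm44593 at Pou3f4 and Gm38011 at Lmx1b were listed at 0 in most libraries and reached at most 0.503 TPM (Gm44593, labelled cKO replicate 3).

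Set against all genes, the 6 genes did not stand out in the palatal shelf. There, 0 of 5 tested passed an FDR of 0.05 in edgeR, as did 0% of the 16525 genes tested, and 1 of 5 had groups without overlap, against 6.23% of all genes. At an unadjusted p under 0.05 there were 1 of the 5 (Pou3f3) and 354 of all genes (2.14%), and DESeq2 called 0 of the 6 and 4 of all genes. In the maxillary process, the comparison taken to have been used in the choice, Pou3f4 was 1 of 6 past the threshold, against 0.0842% of 14254 genes, and 2 of 6 (Pou3f4, Pitx1) did not overlap, against 18.1%. Nothing is read from those counts.

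Between tissues, 3 of 4 tested genes (Pou3f3, Pou3f4, Pitx1) passed the FDR threshold, 1 higher and 2 lower in palatal shelf. Of all 15752 genes 50.6% passed, and 62.1% had groups without overlap, as did 3 of the 4, so a share of this size is common in that comparison. Pou3f2 and Lmx1b were below edgeR's filter there. Without a filter both passed, Pou3f2 at -2.58 (adjusted p 0.04941, edgeR) and Lmx1b at -2.95 (adjusted p 0.02101, edgeR), and without 1 library they passed in 1 of 6 fits each.

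**Figure D4:**
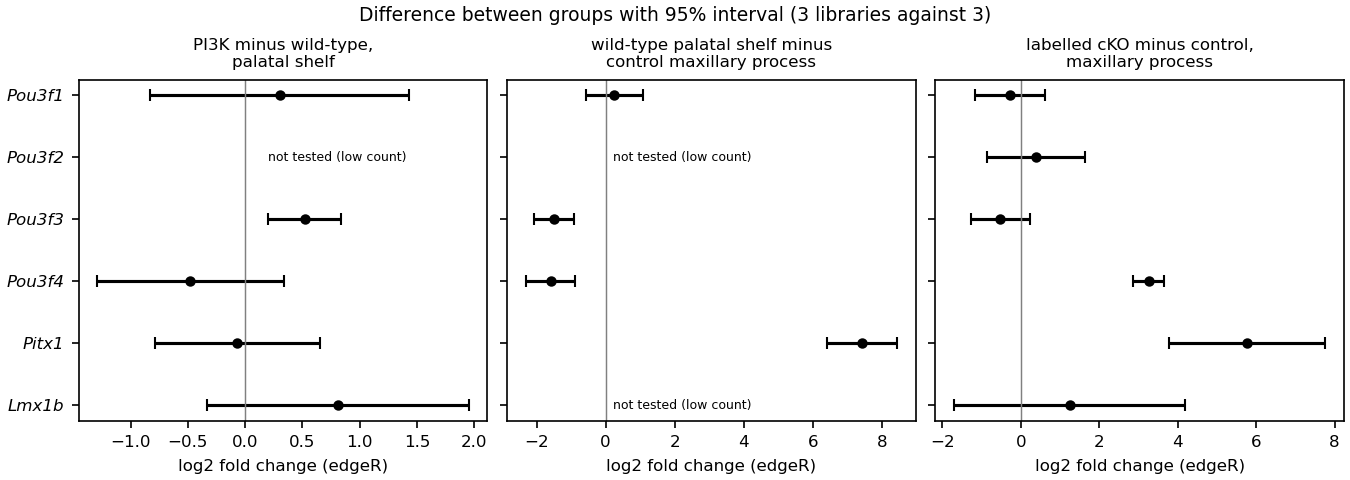
Log2 fold change of each of the 6 genes with its 95% interval (edgeR, 3 libraries against 3) for PI3K against wild-type palatal shelf, wild-type palatal shelf against maxillary control, and labelled cKO against control, each panel with its own scale. The intervals for Pou3f3, Pou3f4 and Pitx1 exclude 0 in the middle panel; the third panel is the comparison taken to have been used in choosing the genes.

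Relatives and partners of the 6 genes were read from a list of 26: other POU, Pitx and Lmx genes, the Ldb and Ssbp cofactors of LIM factors, the SOX partners of POU factors and the Pbx and Meis cofactors. In the palatal shelf 20 were tested and 0 passed the threshold (edgeR), with a median difference of 0.10 against -0.01 over all genes. In the maxillary process 18 were tested and 0 passed, with a median of -0.08 against 0.00 over all genes. Ldb1, the adaptor that LIM factors require, had 273 CPM (counts scaled to 1000000 a library) in the controls against 255 in the labelled cKO, a difference of -0.10 (SE 0.08). Sox11, a partner of class III factors in neural cells, was at 1392 and 1116 CPM, a difference of -0.32 (SE 0.08, adjusted p 0.2772, edgeR).

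Between tissues, 5 of 18 tested relatives and partners rose and 8 fell in palatal shelf relative to maxillary control, past the FDR threshold in edgeR. The median was -0.44, against 0.03 over all genes. Sox2, the best studied partner of POU factors and also a gene of oral epithelium, was 4.91 higher (SE 0.23, adjusted p 2.023e-05, edgeR). Pou6f1 was 1.50 higher, Lmx1a changed by -2.88 and Sox11 by -1.77. Lmx1a, the paralog of Lmx1b, was thus lower in palatal shelf, and its maxillary difference was 0.30 (SE 0.35).

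First arch genes were taken from a list of 12 of the proximal, maxillary side and another of 17 of the distal, mandibular side, where Pitx1 is normally expressed. In the maxillary process 0 of 12 proximal and 0 of 14 tested distal genes passed the threshold (edgeR), with medians of -0.12 and 0.03 against 0.00 over all genes. Of the distal genes 7 were higher and 7 lower. Barx1, a mesenchymal factor of the molar and stomach fields, had 246, 264 and 127 CPM in the controls against 29.0, 111 and 83.7 in the labelled cKO, a difference of -1.50 (SE 0.48, adjusted p 0.3192, edgeR) without overlap. Dlx5, which specifies distal arch identity, differed by 0.10 (SE 0.40) and Bmp4 by -0.04 (SE 0.27). In the palatal shelf 0 of 12 and 0 of 15 passed.

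Between tissues 3 proximal genes were higher and 3 lower, and 4 distal genes higher and 4 lower, out of 12 and 14 tested (edgeR). Shox2, a palate and limb homeobox gene, was 3.55 higher in palatal shelf. Msx2 changed by -3.24 and Foxf1 by 2.78.

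Mesenchyme around the eye, where Lmx1b acts with Foxc1 and Foxc2, was read from a list of 16 genes that includes Lmx1b itself. All 16 were tested in the maxillary process: 11 were higher and 5 lower in the labelled cKO, with a median of 1.03 against 0.00 over all genes. Past the threshold were Zic2, with 0.494 CPM in the controls against 80.2 in the labelled cKO (7.30, SE 0.28, adjusted p 0.0001644, edgeR), and Foxd1, at 3.28 and 64.5 CPM (4.31, SE 0.33, adjusted p 0.007804, edgeR). Of the 16, 6 had groups without overlap on the higher side and 2 on the lower. Among the 3 highest in TPM, Alx1 differed by -1.1 (SE 0.14, adjusted p 0.06619, edgeR) and Foxl2 by -0.77 (SE 0.3), both without overlap. Rarb, also among these 3, differed by 0.04 (SE 0.32), with overlap. In the palatal shelf 0 of 13 tested passed (edgeR), with a median of 0.08.

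The genes of this list did not share an order across the labelled cKO libraries, and these examples were picked after their values were seen. Foxc1, at 53.9, 20.6 and 20.7 TPM, was highest in replicate 1, as Lmx1b was. Zic1, at 2.30, 6.07 and 16.7 TPM, was lowest there and highest in replicate 3, as Pitx1 was. Pou3f4 varied little, from 31.3 to 40.1 TPM.

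**Figure D5:**
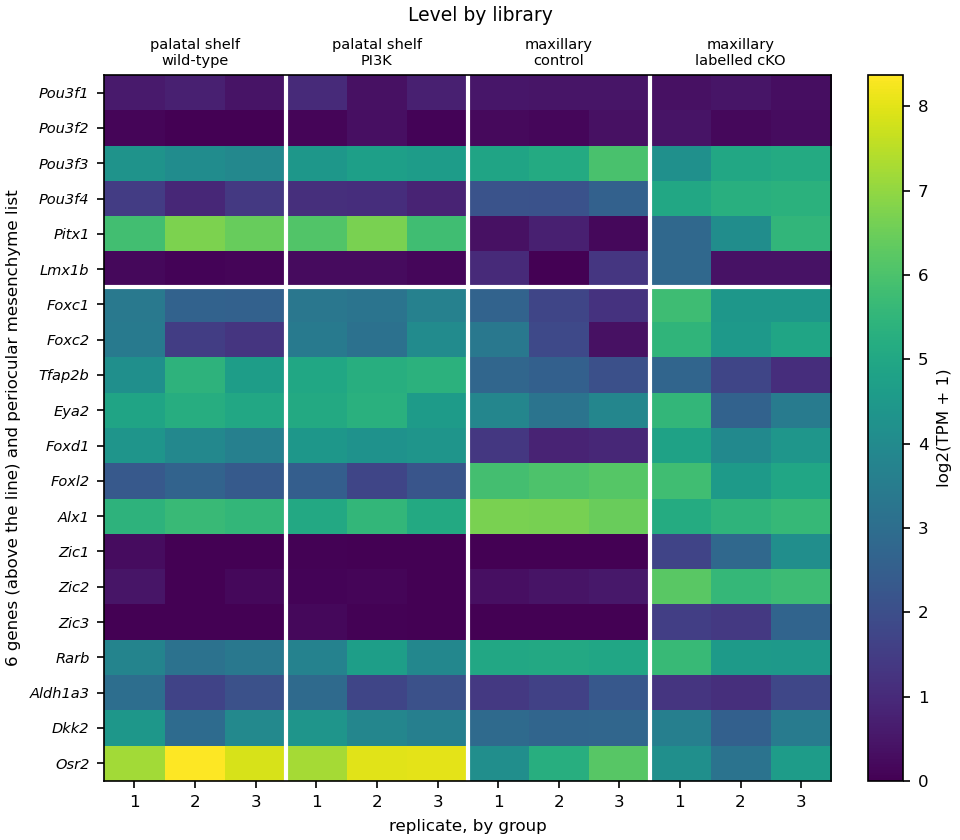
Level of the 6 genes (above the white line) and of 14 other periocular mesenchyme genes, as log2(TPM + 1) in colour, in each of the 12 libraries ordered by group and replicate. In the last 3 columns, Lmx1b and Foxc1 are highest in replicate 1 (6.15 and 53.9 TPM), and Pitx1 and Zic1 in replicate 3 (44.4 and 16.7 TPM).

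Genes linked to Lmx1b in matrix biology, 11 genes that include glomerular, corneal and other connective tissue components and limb patterning targets, gave 0 of 9 tested past the threshold in the palatal shelf and 0 of 7 in the maxillary process (edgeR). Their medians there were -0.27 and -0.49, against -0.01 and 0.00 over all genes. Between tissues 5 were higher in palatal shelf and 1 lower, of 8 tested, while Lmx1b itself was at 0.0905 ± 0.0398 TPM in palatal shelf and 0.843 ± 0.753 TPM in maxillary control.

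Markers of other cells in the maxillary groups are given as measured. Endothelial genes summed to 219 to 228 TPM in controls and 281 to 535 TPM in the labelled cKO, with 8 of 9 higher without overlap. Neuron markers summed to 66.1 to 177 and 44.8 to 62.2 TPM, and glia markers to 113 to 161 and 59.0 to 91.2 TPM. Forebrain neuroepithelium markers summed to 42.0 to 114 and 39.8 to 58.6 TPM, with overlap. Of the 6 forebrain markers tested, 3 were higher and 3 lower in the labelled cKO, with a median of 0.05. Whether the makeup of the dissected tissue has a part in the levels of the 6 genes was not tested.

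Likeness of expression was measured as Pearson's r of log2(TPM + 1), within the 6 palatal and within the 6 maxillary libraries, taking the lower of both values over 13042 genes with at least 1 TPM in each tissue. Libraries share their tissue, depth and group differences, so this is a description. The genes most like Pou3f3 were Enox1 (lower r 0.919), Mettl23 (0.918) and Nlgn3 (0.907). Those most like Pou3f4 were Elmo1 (0.927), Hdlbp (0.885) and Gm4316 (0.858). Those most like Pitx1 were Jag2 (0.952), Trp63 (0.898) and Tspan15 (0.890), of which Trp63 is an epithelial marker of the list above. Pou3f1, Pou3f2 and Lmx1b were too low in a tissue to be compared.

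The effective length of a gene, the ratio of its estimated count to its TPM, centred on the median gene of the library, moves when the mix of its transcripts moves. It was constant for the single-exon class III genes, for example 1.58 to 1.61 on the log2 scale for Pou3f3 over all libraries. For Pitx1 it was -0.35 to -0.23 in palatal shelves and -0.32 to -0.09 in the labelled cKO, and -0.10 in the controls, which held at most 16 counts. For Lmx1b it was 0.94 to 0.96 in palatal shelves, 0.49 to 0.93 in controls and 0.27 to 0.94 in the labelled cKO, at 1 to 220 counts a library.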

How the data were processed

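The 6 genes, the gene lists and the tests were chosen with earlier results of these data known. The deposited estimated counts and TPM values were made by the authors; the submitters' processing notes name STAR 2.7.0, Salmon 1.1.0, DESeq2 1.28.1 and the build mm10, with no role for any. The file names of the deposited tables name Salmon for both units. TPM is scaled for transcript length and sums to 1000000 in each library; the estimated counts are not normalised between libraries. Whether strand was used and which annotation was indexed is not given in the sources used here.

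Each table held 53392 genes, 12 libraries and 0 columns without a sample. Symbols and coordinates came from GENCODE M21 (GRCm38), not stated to be the authors' annotation: 53355 identifiers matched without version, 52175 with it, and 37 did not. Counts were rounded and tested in R 4.3.3 with edgeR 4.0.16 (quasi-likelihood F-test, TMM, filterByExpr as it stands, FDR of 0.05 by Benjamini-Hochberg across every gene kept), in 3 separate fits of 6 libraries with the group as the only term. CPM values are on the TMM scale. Standard errors come from the quasi-likelihood F statistic. Groups came from the labels. The fit was tested on simulated data with 200 changed genes. For the palatal shelf, the maxillary process and the tissues in turn, it recovered 80.7%, 84.5% and 86.2% of 4-fold changes. It recovered 39.3%, 57.3% and 61.3% of 2-fold changes. False calls were 12 of 127, 10 of 151 and 14 of 160. With 0 changed genes they were 0, 1 and 0.

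Named beside the 6 genes were Srsf3, their 3 most alike genes, annotated genes that overlap them or start within 10 kb, and from each list up to 5 genes past the threshold and the 3 highest in TPM; a few markers were named after their values were seen. Alternatives were DESeq2-type size factors, no filter, more than 1 CPM in 3 libraries, DESeq2 1.42.0, limma 3.58.1 on log2(TPM + 1) and log2(TPM + 0.1), FDR 0.1, the replicate number as a block, and leaving out each library. Promoter sequences are those of RefSeq (GRCm38.p6), matched by symbol for 4 of the 6 genes. A few list genes are counted but not named here. Exon usage was not analysed here. P-values weigh a group difference against the spread between 3 libraries a group, with the estimate of that spread moderated over all genes tested.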

Additional observations from a re-analysis of the deposited data

How the results depend on the processing

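The palatal shelf count of genes past the threshold was 0 in edgeR and 4 in DESeq2. In the maxillary process it was 12, and 36 at FDR 0.1, 143 with no filter, 384 in DESeq2, 40 with the replicate block and 2 to 29 when a library was left out. Of the 6 genes 1 passed there, and 2 (Pou3f4 and Pitx1) at FDR 0.1, with no filter and in DESeq2; leaving out a library gave 1 to 2; these counts come from the comparison taken to have been used in choosing the genes, and support nothing about them. Between tissues 3 of the 6 passed, and 5 with no filter and in DESeq2, where Pou3f2 and Lmx1b were also tested. The cause of these differences was not tested.

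Signs turned only in fits that left out a library. Pou3f1 in the palatal shelf ran from -0.138 (without PI3K replicate 1) to 0.644, Pitx1 there from -0.425 to 0.168, positive without wild-type replicate 2 (0.168), PI3K replicate 1 (0.038) or PI3K replicate 3 (0.143), and Lmx1b in the maxillary process from -1.152 (without labelled cKO replicate 1) to 1.836. None of these 3 passed the threshold in edgeR.

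Same-numbered libraries correlated at 0.533, 0.222 and -0.22 in the palatal shelf, 0.081, 0.113 and 0.23 in the maxillary process and -0.143, 0.03 and -0.017 between tissues. Different-numbered ones ran from -0.573 to 0.4, from -0.233 to 0.143 and from -0.113 to 0.126. These ranges overlap, and the replicate block moved the maxillary count of all genes from 12 to 40. Whether the numbers pair the libraries is therefore not settled. With the replicate block 0, 1 and 3 of the 6 genes passed, as without it, and Pou3f3 in the palatal shelf differed by 0.526. Counts of 0 to 66 a library limit Pou3f1 and Pou3f2, and 1 to 220 Lmx1b.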
